A study of Mus musculus with 11 samples.

Results

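Heat shock genes were examined in single mouse embryos at the 8-cell stage, as 10 genes chosen by symbol. They comprised *Hsf1*, the HSP70 genes *Hspa1a*, *Hspa1b*, *Hspa5* and *Hspa8*, the HSP90 genes *Hsp90aa1* and *Hsp90ab1*, the mitochondrial chaperonin genes *Hspd1* and *Hspe1*, and the co-chaperone gene *Dnajb1*. All 10 matched a row among the 54146 genes quantified.

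Chaperones bind unfolded or partly folded proteins and help them reach their native state. HSP70 proteins bind and release short exposed stretches of their clients in a cycle driven by ATP, J-domain proteins such as DNAJB1 start that cycle, and HSP90 proteins act later on clients that include kinases and receptors. HSF1 is the transcription factor that binds heat shock elements and raises stress-inducible chaperone genes when unfolded proteins build up. HSPA8 and HSP90AB1 are the forms made without stress in most cells, whereas *Hspa1a* and *Hspa1b* are the classical inducible genes, and *Hspa1a* and *Hspa1b* transcripts are known to appear in mouse embryos when the zygotic genome is first switched on.

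The study collected embryos at embryonic day 2.5 from C57BL/6 intercrosses of mice heterozygous for a deleted *Prdm10* allele, which lacks exon 5 and was made by crossing a conditional allele to an *ACTB*-Cre deleter. The 5 mutants were homozygous for the deletion, and the 6 controls were wild-type or heterozygous and were not told apart. Genotype was assigned by detecting exon 5 in cDNA of each embryo, and PRDM10 is a zinc finger DNA-binding protein. Libraries followed a Smart-seq2 protocol in 2 batches, with 16 cycles of pre-amplification for batch 1 (3 controls and 2 mutants) and 13 cycles for batch 2 (3 controls and 3 mutants). The batches were also isolated separately, so PCR cycles and collection cannot be told apart.

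Library totals ranged from 3534735 to 8265840 expected counts, and none of 55 library pairs agreed within sampling noise. *Prdm10* lay between 11.1 and 24.8 TPM in controls and between 4.88 and 8.16 TPM in mutants, with no overlap. Its expected counts did overlap, at 91.9 to 294 in controls and 100 to 265 in mutants, and its effective length averaged 3011 bases in controls and 4746 bases in mutants. Of 8 markers of the 8-cell embryo, 7 had a mean above 1 TPM, and *Cdx2* averaged 0.513 TPM. Of 6 cumulus markers *Amhr2* was present in every embryo, at 19.3 to 80.9 TPM, while *Foxl2*, *Ptx3* and *Has2* were at 0 in all 11, and the summed list ranged from 21.6 to 81.1 TPM in controls and from 19.3 to 74.3 TPM in mutants. Summed oviduct markers had a median of 2.15 TPM in controls (highest 24.3) and 9.93 TPM in mutants (highest 44). The medians of summed blood markers were 7.33 TPM (highest 33.4) and 4 TPM (highest 9.62), and those of summed oocyte markers 47.5 and 49.3 TPM. Their part in the results below was not tested.

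Sequences upstream of annotated start sites are shown first, because heat shock elements are where HSF1 binds. Promoter windows, from RefSeq on GRCm38.p6, run from 250 bases before to 50 bases after a start site and were present for 6 of the 10 genes, in 8 windows. A heat shock element was searched on both strands as inverted units of GAA and TTC separated by any 2 bases, in a 2-unit form (GAANNTTC or TTCNNGAA) and a 3-unit form, which contains overlapping 2-unit matches. Of 32851 promoter windows, 15.1% held the 2-unit form and 0.603% held the 3-unit form. The 2-unit form was found for 4 of the 6 genes and the 3-unit form for *Hspd1* and *Hspe1*, whereas the windows of *Hspa5* and *Dnajb1* held neither. These counts are of genes with a match in any window, whereas the shares above are of windows. The 4 genes are not independent, because *Hspd1* and *Hspe1* share the same stretch and the *Hspa1a* and *Hspa1b* windows are near-identical.

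*Hspd1* and *Hspe1* encode the barrel and the lid of the mitochondrial chaperonin and lie head to head on chromosome 1. *Hspd1* occupies 55077835 to 55088243 on the minus strand and *Hspe1* occupies 55088132 to 55091307 on the plus strand (GRCm38), so that the gene records overlap by 112 bases. The same 62 bases, chr1:55088037-55088098, stand outside that overlap but in a promoter window of each gene. They are printed for both strands with the element in capitals.
*Hspe1*, plus strand: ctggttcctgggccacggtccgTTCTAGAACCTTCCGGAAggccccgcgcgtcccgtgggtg
*Hspd1*, minus strand: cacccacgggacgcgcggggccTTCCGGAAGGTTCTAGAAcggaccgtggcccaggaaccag
The element spans positions -89 to -72 from the start site of *Hspe1*. It spans -144 to -127 from the start site of the *Hspd1* window at 55087883 to 55088182, a site inside the gene record. The other *Hspd1* window, at 55088194 to 55088493, takes in the start of the gene record at 55088243 and held no element. Relative to that start the element lies downstream, within the record.

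*Hspa1a* (chromosome 17, 34969190 to 34972156) and *Hspa1b* (chromosome 17, 34956436 to 34959238) lie on the minus strand, 9951 bases apart. Their promoter windows were identical at 296 of 300 bases. Each held a single 2-unit element, at positions -104 to -97, in a stretch of 52 bases that was the same in both genes and is shown because it cannot separate them.
*Hspa1a*, chr17:34972231-34972282: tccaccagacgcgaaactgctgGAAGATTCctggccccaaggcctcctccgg
*Hspa1b*, chr17:34959313-34959364: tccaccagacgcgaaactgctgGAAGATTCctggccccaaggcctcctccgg

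The transcripts are also alike, which limits how reads can be assigned. Of the 75-base windows in annotated transcripts, a length equal to one read, 61.7% of those of *Hspa1a* and 55.8% of those of *Hspa1b* occurred in another gene as well. The shares were 42.8% for *Hsp90aa1*, 33% for *Hspa8*, 31% for *Hspd1* and 14.6% for *Hspe1*, and for these genes the gene sharing most was not another of the 10. *Hsf1*, *Hspa5* and *Dnajb1* shared none, and *Hsp90ab1* shared 0.537%. The posterior standard deviation that RSEM gave for the division of shared reads was 26.3% of the count for *Hspa1b* and 7.33% for *Hspa1a*, against at most 0.623% for the other 8 genes. Single values of *Hspa1a* and *Hspa1b* are therefore uncertain.

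Levels were then compared between the genes in TPM, which is scaled by transcript length. They fell into 4 tiers. *Hspa8* averaged 4263 ± 1117 TPM (SD, n = 11), *Hsp90aa1* 2792 ± 882 and *Hsp90ab1* 2401 ± 550, which placed them at ranks 20, 36 and 50 among all genes by the mean over both batches. *Hsp90ab1* averaged 2813 TPM against 2098 TPM for *Hsp90aa1* in batch 1, and 2058 against 3372 TPM in batch 2. *Hspe1* (163 ± 43.1 TPM), *Hspd1* (141 ± 30.3) and *Hspa5* (109 ± 37.9), whose product is the HSP70 protein of the endoplasmic reticulum, followed at ranks 929 to 1330. *Dnajb1* averaged 29.5 ± 6.36 TPM and *Hsf1* 22.1 ± 4.59. *Hspa1a* averaged 1.88 ± 2.39 TPM and *Hspa1b* 0.358 ± 0.265.

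**Figure D1:**
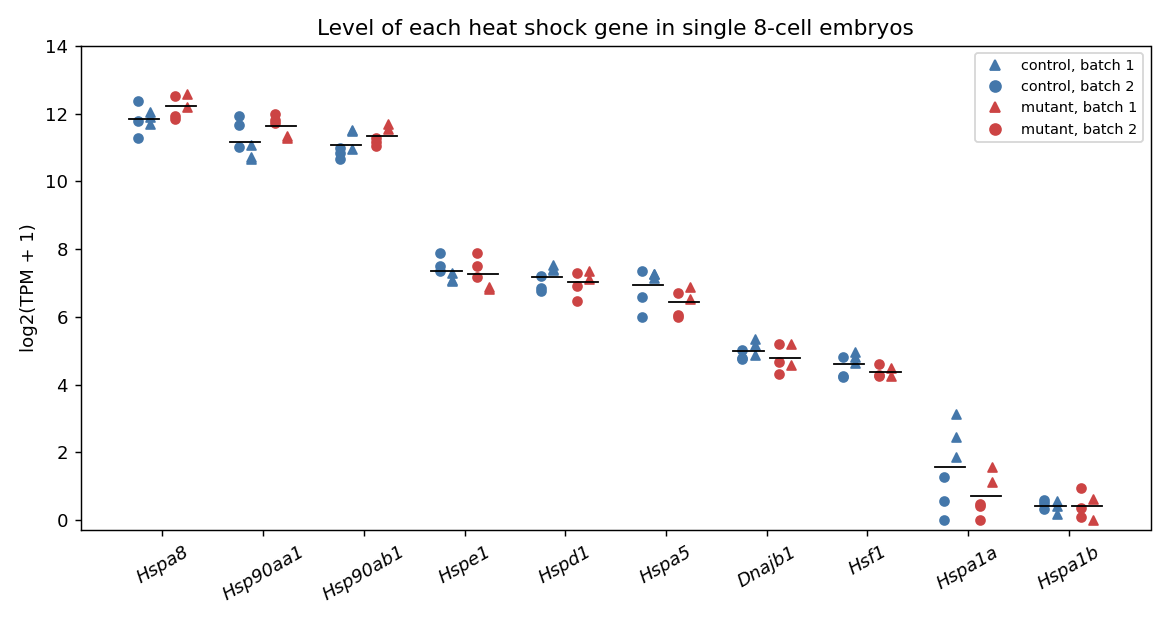
Level of each gene in every embryo as log2(TPM + 1), for controls (blue) and mutants (red) of batch 1 (triangles) and batch 2 (circles), with the group mean as a line. *Hspa8* and the 2 HSP90 genes stand far above the others, and the *Hspa1a* values of batch 1 controls stand above those of all other embryos.

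The tiers did not overlap in any embryo, but neighbours within a tier often did. *Hspa8* exceeded *Hsp90aa1* in 11 of 11 embryos although their ranges overlapped. *Hsp90aa1* exceeded *Hsp90ab1*, and *Hspe1* exceeded *Hspd1*, in 6 of 11 embryos, which were the 6 embryos of batch 2 for both pairs. In the 5 embryos of batch 1 both orders were reversed. *Hspd1* exceeded *Hspa5* in 10 of 11 embryos, *Dnajb1* exceeded *Hsf1* in 9 of 11 and *Hspa1a* exceeded *Hspa1b* in 7 of 11. The 10 genes together made up 0.67% to 1.26% of all TPM in an embryo.

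The spread among embryos did not follow the order of the levels. After removal of batch and group means, the residual SD of log2(TPM + 1) was 0.192 for *Hsp90ab1*, and 95.2% of the genes tested had a larger one. It was between 0.245 and 0.301 for *Hspe1*, *Hsf1*, *Hspd1*, *Hsp90aa1*, *Hspa1b* and *Dnajb1*, 0.36 for *Hspa8*, 0.404 for *Hspa5* and 0.537 for *Hspa1a*. The median over all genes tested was 0.457, and over genes above 100 TPM it was 0.257. A low residual SD of *Hspa1b* on this scale goes with its level near 0.

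To ask whether loss of PRDM10 altered the heat shock genes, mutants were compared with controls with batch as a term. With the DESeq2 Wald test at an adjusted p under 0.05 and a mean normalised count (baseMean) above 10, 0 of the 9 genes tested were called, and edgeR's quasi-likelihood test called 0 as well. Over all genes DESeq2 called 148 of 10448 (1.42%; 58 higher and 90 lower) and edgeR 35 of 10489 (0.334%). At an unadjusted DESeq2 p under 0.05 there were 4 of the 9 genes, beside 1248 of the 10448 genes. The 2 higher were *Hspa8* and *Hsp90ab1*, and the 2 lower were *Hspa5* and *Hspa1a*. *Hspa1b* had a baseMean of 4.51 and was not tested. Each library is a whole embryo, so fewer cells with a transcript and less of it per cell cannot be told apart.

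**Figure D2:**
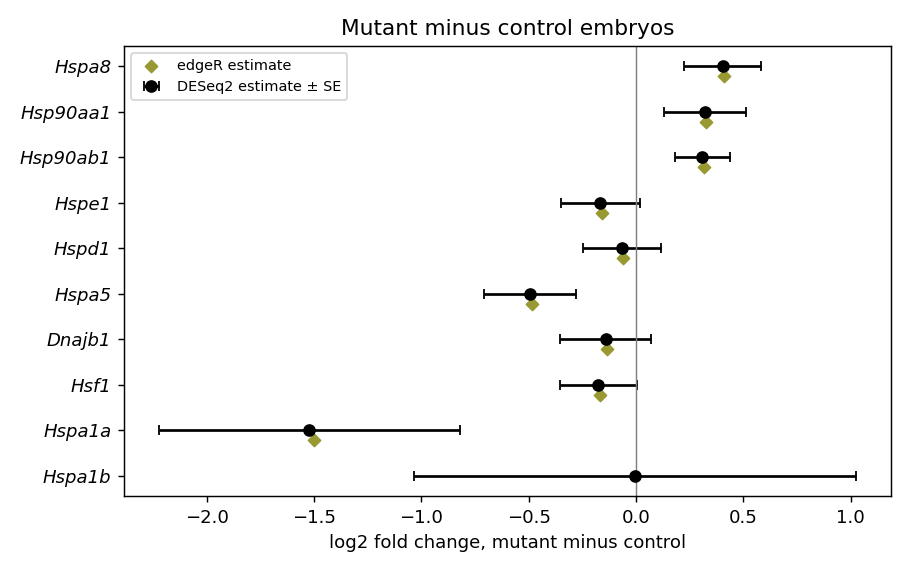
Log2 fold change of each gene, mutant minus control, from DESeq2 (black, with its standard error) and edgeR (olive diamonds, not given for *Hspa1b*). The estimates of the abundant cytosolic genes lie between 0.31 and 0.40, that of *Hspa1a* lies at -1.52 with a wide error, and no gene passed the adjusted threshold.

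The abundant cytosolic genes had positive estimates that did not pass. *Hspa8* was at 5866, 3877, 3697, 6109 and 4669 TPM in mutants 1 to 5, and between 2475 and 5301 TPM in controls (median 3663). The ranges overlapped over most of their length. The log2 fold change was 0.40 ± 0.18 (SE, DESeq2 adjusted p = 0.331), with a 95% interval from 0.05 to 0.76. Intervals here and below are not adjusted for the number of genes tested. *Hsp90ab1* was at 2107, 2494, 2283, 3290 and 3004 TPM in mutants and between 1608 and 2925 TPM in controls (median 2007). Every mutant exceeded every control of its own batch, whereas the groups overlapped across batches. The log2 fold change was 0.31 ± 0.13 (SE, DESeq2 adjusted p = 0.271), with a 95% interval from 0.06 to 0.56. *Hsp90aa1*, the more stress-responsive HSP90 gene, was at 4090, 3395, 3588, 2472 and 2584 TPM in mutants and between 1608 and 3879 TPM in controls (median 2095). Its log2 fold change was 0.32 ± 0.19 (SE; DESeq2 adjusted p = 0.539), and the 95% interval ran from -0.05 to 0.70. Leaving out 1 embryo gave 0.20 without control 1 to 0.46 without control 2.

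*Hspa5* and *Hspa1a* had negative estimates, which did not pass either. *Hspa5* was at 103, 65.6, 63.3, 116 and 90.5 TPM in mutants and between 63.3 and 163 TPM in controls (median 146). Its log2 fold change was -0.49 ± 0.21 (SE, DESeq2 adjusted p = 0.297), with a 95% interval from -0.91 to -0.08. It was -0.61 in batch 1 alone and -0.39 in batch 2 alone. Leaving out 1 embryo gave -0.62 without control 2 (DESeq2 adjusted p = 0.0583) to -0.30 without control 1 (DESeq2 adjusted p = 0.696). *Hspa1a* was at 0, 0.38, 0.32, 1.18 and 1.97 TPM in mutants, and at 0.48, 0 and 1.43 TPM in controls of batch 2 and 7.83, 4.49 and 2.65 TPM in controls of batch 1. The largest values were all from batch 1 controls, and the groups overlapped. The log2 fold change was -1.52 ± 0.70 (SE; DESeq2 adjusted p = 0.362), with a 95% interval from -2.90 to -0.15. It was -0.98 without control 3 and -0.69 with limma on log2(TPM + 1), a scale that understates changes of low genes. The 2 listed zeros are counts of 0, which allow up to 0.37 TPM in control 2 and 0.159 TPM in mutant 1 for counting error only. Summing the *Hspa1a* and *Hspa1b* rows gave -1.11 ± 0.56 (SE; DESeq2 adjusted p = 0.433).

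The remaining genes had estimates near 0. *Hsf1* was at 18.4, 17.95, 23.2, 21.4 and 18 TPM in mutants and between 17.65 and 30.45 TPM in controls (median 25.5), with a log2 fold change of -0.18 ± 0.18 (SE; DESeq2 adjusted p = 0.794). *Hsf1* is the one gene of the 10 in the study's list of PRDM10-bound genes, which was made from embryonic stem cells. Of the 97 other chaperone genes described below, 1 was in that list. The share of all genes in the list was not worked out. *Dnajb1* was at 35.6, 24.5, 19, 23.1 and 35.7 TPM in mutants and between 25.9 and 39.3 TPM in controls (median 30.1), with a log2 fold change of -0.14 ± 0.21. *Hspd1* was between 86.9 and 162 TPM in mutants and 107 and 184 TPM in controls, and *Hspe1* between 111 and 236 TPM in mutants and 132 and 238 TPM in controls. Their log2 fold changes were -0.06 ± 0.18 and -0.17 ± 0.18. Leaving out 1 embryo gave -0.24 to -0.10 for *Hsf1* (the latter without mutant 5), -0.27 (without mutant 1) to -0.03 (without mutant 4) for *Dnajb1*, and -0.27 (without mutant 1) to -0.10 (without mutant 3) for *Hspe1*, and *Hspd1* went from -0.18 without mutant 1 to 0.03 without mutant 3. The 95% intervals of these 4 genes reached from -0.56 to 0.29 on the log2 scale.

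Groups were also compared within each batch. In batch 1, with 3 controls and 2 mutants, 8 of the 10 genes did not overlap between the groups in TPM, where 23.6% of all genes tested did not. *Hspa8*, *Hsp90aa1* and *Hsp90ab1* were higher in both mutants, and *Hsf1*, *Hspa1a*, *Hspa5*, *Hspd1* and *Hspe1* were lower. In batch 2, with 3 of each, only *Hsp90ab1* did not overlap, beside 12.5% of all genes. Over all 11 embryos none of the 10 separated the groups, beside 0.871% of all genes. The interaction of batch and group was called for none of the 10 by DESeq2 (adjusted p = 1 for each), beside 6 of 10472 genes (0.0573%), and edgeR called 0 genes. At an unadjusted p under 0.05 the interaction was found for 451 of all genes and for none of the 10.

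The batches were compared in the same fit. DESeq2 called 4 of the 9 genes tested, 2 higher and 2 lower in batch 1, beside 2899 of 10448 genes (27.7%). edgeR called 3 of the 4, beside 22.7% of all genes. *Hspe1* was lower in batch 1 by 0.79 ± 0.18 on the log2 scale (DESeq2 adjusted p = 0.000243), with 111 to 156 TPM in batch 1 and 144 to 238 TPM in batch 2. *Hsp90aa1* was lower in batch 1 by 0.69 ± 0.19 (DESeq2 adjusted p = 0.003), with 1608 to 2584 TPM against 2055 to 4090 TPM. *Hspa1a* was higher in batch 1, by 2.56 ± 0.69 (DESeq2 adjusted p = 0.00217), with 1.18 to 7.83 TPM against 0 to 1.43 TPM. With the *Hspa1a* and *Hspa1b* rows summed the difference was 1.73 ± 0.56 (DESeq2 adjusted p = 0.0127). *Hsp90ab1* was higher by 0.34 ± 0.13 (DESeq2 adjusted p = 0.0345; edgeR adjusted p = 0.0576), and it lost the call in 9 of the 11 fits that left out an embryo, with adjusted p from 0.0526 to 0.106 in those fits. In the 6 controls alone *Hspa1a* was called (2.64, adjusted p = 0.0203), whereas *Hsp90aa1* (-0.78, adjusted p = 0.0572) and *Hspe1* (-0.67, adjusted p = 0.0893) kept their direction without passing. *Hspe1* also did not pass with limma on log2(TPM + 1) (adjusted p = 0.0555).

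**Figure D3:**
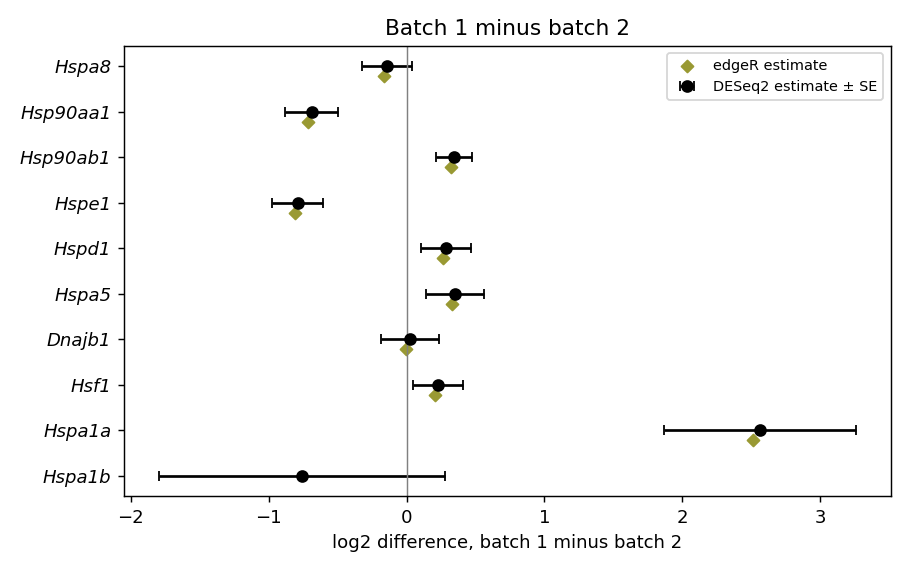
Log2 difference of each gene, batch 1 minus batch 2, from DESeq2 (black, with its standard error) and edgeR (olive diamonds, not given for *Hspa1b*). *Hspa1a* lies at 2.56, and *Hspe1* and *Hsp90aa1* lie below 0.

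The batch difference was also summarised by transcript length over all genes, as a description with no test. Its median was -0.47 for genes with an effective length under 500 bases, -0.22 from 500 to 1000 bases, 0.18 from 1000 to 2000 bases, 0.15 from 2000 to 4000 bases and -0.55 above, with no steady trend. Of the 4 genes called, *Hspe1* (700.4 bases) had the sign of its class but a larger difference, *Hsp90aa1* (1486 bases) had the opposite sign to its class, and *Hsp90ab1* (2216 bases) and *Hspa1a* (2893 bases) had the sign of theirs. The part of length in the differences of the 4 genes was not tested.

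Partner genes moved apart between the batches. The TPM of *Hspe1* was 1.24 to 2.09 times that of *Hspd1* in batch 2 and 0.684 to 0.938 times that in batch 1. The TPM of *Hsp90ab1* was 0.515 to 0.782 times that of *Hsp90aa1* in batch 2 and 1.16 to 1.73 times that in batch 1. Neither ratio overlapped between the batches, whereas none of the 10 genes on its own separated the batches in TPM, beside 12.7% of all genes tested. Both ratios were chosen after the values had been seen, so they are given as descriptions with no test.

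**Figure D4:**
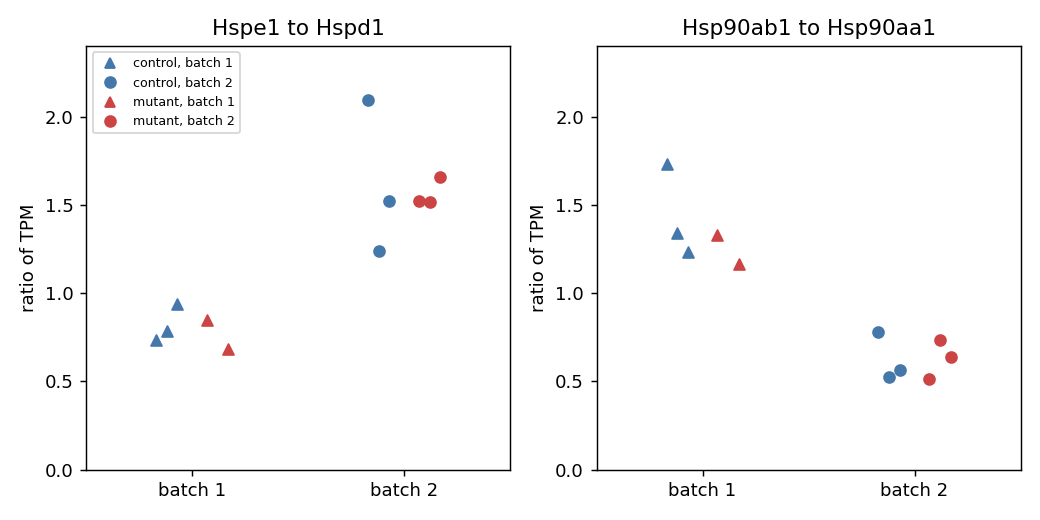
Ratio of TPM in every embryo of *Hspe1* to *Hspd1* (left) and of *Hsp90ab1* to *Hsp90aa1* (right), by batch, for controls (blue) and mutants (red). Neither ratio overlaps between the batches, and they shift in opposite directions.

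Pairs of genes were compared across embryos after the means of each batch and group had been removed. *Hspd1* and *Hspe1*, which share the element printed above, had a Pearson r of 0.563 and a Spearman rho of 0.364 over 11 embryos (exact permutation test within batch and group, two-sided, p = 0.292 and 0.44; adjusted over 4 pairs, p = 0.389 and 0.53). Without the 2 embryos farthest from the median of *Hspd1*, r was -0.178, so the value rests on those embryos, and leaving out 1 embryo gave r from 0.171 (without mutant 1) to 0.811 (without control 1). *Hspa1a* and *Hspa1b* had r = 0.356 and rho = 0.391 (exact permutation p = 0.188 and 0.255, adjusted p = 0.389 and 0.53). Their r was 0.48 without the 2 farthest, and from 0.226 (without control 6) to 0.54 (without mutant 2) when 1 embryo was left out. *Hsp90aa1* and *Hsp90ab1* had r = 0.488 and rho = 0.409 (exact permutation p = 0.248 and 0.352, adjusted p = 0.389 and 0.53). Their r was 0.247 without the 2 farthest, and from 0.32 (without control 1) to 0.623 (without control 4) when 1 embryo was left out. *Hspa8* and *Hsp90ab1* had r = 0.0928 and rho = 0.209 (exact permutation p = 0.782 and 0.53; adjusted p = 0.782 and 0.53), and -0.435 without the 2 farthest. In batch 2 alone, with 6 embryos, r was 0.655, 0.178, 0.605 and 0.412 for the 4 pairs in that order.

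The genes whose residual pattern was most like that of *Hspd1*, among 5716 genes above 10 TPM over the same 11 embryos, were *Haus4* (r = 0.96), *Rab1a* (0.941), *Ube2e1* (0.931), *Nop58* (0.931) and *Oser1* (0.929). For *Hspa8* they were *Fdft1* (0.944), *Eef1a1* (0.938), *Ywhaq*, *Cdc42* and *Golga7* (0.923 each). All points share libraries and depth, and these values are descriptions.

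The other chaperone genes were followed as 97 genes in 8 lists, of which 78 could be tested. DESeq2 called 0 higher and 1 lower in mutants, beside 148 of all 10448 genes tested (1.42%). edgeR called 0, beside 35 of 10489 (0.334%). The median log2 fold change of the 78 was -0.01, beside -0.14 for the 9 heat shock genes and 0.00 for all genes tested (-0.00124). The one call was *Hspa2*, an HSP70 gene best known from male germ cells. Its normalised count was 67.2, 73.2, 54.6, 42 and 32.1 in mutants and 87.8 to 165 in controls (median 96.6), with no overlap. The log2 fold change was -1.11 ± 0.30 (SE; DESeq2 adjusted p = 0.0287; edgeR adjusted p = 0.241), and no other chaperone gene was called once control 3, 4, 5 or 6 or mutant 3 or 5 was left out. *Hsf2*, a second heat shock factor, was at 260, 258, 196, 171 and 330 normalised counts in mutants and 93 to 175 in controls. Those ranges overlapped slightly at the edge. In TPM it was at 20.9, 19.5, 15.2, 16 and 29.7 in mutants and 7.01 to 14.8 in controls, with no overlap. Of all genes tested, 0.871% did not overlap between the groups in TPM. The log2 fold change of *Hsf2* was 0.82 ± 0.25 (DESeq2 adjusted p = 0.0558, edgeR adjusted p = 0.241).

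None of the other 7 lists held a call. Among J-domain genes, 19 of 22 were tested, and the abundant *Dnajb6* (1131 TPM) and *Dnaja1* (1034 TPM), a partner of cytosolic HSP70, had log2 fold changes of 0.11 ± 0.14 and 0.37 ± 0.21, while *Dnajb14* was at -0.79 ± 0.38. Among HSP90 paralogs and co-chaperones, 20 of 20 were tested, with *Sugt1* at 0.17 ± 0.13, *Stip1*, which links HSP70 to HSP90, at 0.23 ± 0.13, and *Fkbp4* at 0.51 ± 0.23. Among 17 of 18 tested genes of the endoplasmic reticulum, the disulphide isomerase genes *Pdia3* and *P4hb* were at -0.04 ± 0.13 and -0.20 ± 0.19, and *Atf6*, a sensor of unfolded proteins, at 0.48 ± 0.22. Among mitochondrial genes, 11 of 11 were tested, with *Clpx* at 0.27 ± 0.14, *Hspa9*, the mitochondrial HSP70 gene, at 0.14 ± 0.15 and *Grpel2* at -0.40 ± 0.27. The exchange factors *Hspbp1* and *Bag1* were at 0.17 ± 0.22 and -0.07 ± 0.19, and the small heat shock genes *Hspb11* and *Hspb1* at -0.16 ± 0.38 and 0.05 ± 0.47, with 2 of 10 of that list tested. *Hsbp1*, whose product binds HSF1, was at -0.14 ± 0.18. In the list that holds *Hspa2*, to which *Hspa9* also belongs, *Hspa14* was at 0.17 ± 0.25 and *Hsph1* at 0.29 ± 0.29. Between the batches 24 of the 78 genes (30.8%) were called, 18 higher and 6 lower in batch 1, beside 27.7% of all genes, of which 1461 were higher and 1438 lower.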

How the data were processed

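Single-embryo RNA-seq was available for 11 embryos. Per the study's methods, the authors mapped single-end reads with STAR (2.6.0c) to GRCm38.p6 and quantified genes with RSEM against GENCODE vM18. The deposited tables hold the RSEM expected count, which divides shared reads among genes, its posterior standard deviation, the effective length, and the TPM, which the authors' pipeline expresses as a length-corrected share of each library. The authors' comparison table holds a log2 fold change, a p-value and an adjusted p-value per gene and was not used. Symbols and coordinates came from GENCODE vM21 of the same build (54079 of 54146 identifiers matched).

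Expected counts were rounded. DESeq2 (1.42.0) was fitted to all genes with batch and group, and its independent filtering was tuned to 0.05. edgeR (4.0.16) and limma (3.58.1) were alternatives, run in R (4.3.3). The tests were checked on simulated counts. Groups came from the labels, and replicates were numbered in accession order. Each library is 1 embryo, and reads copied by PCR were counted separately, so intervals and floors cover counting error only. Named genes were the 10, *Prdm10*, called chaperone genes, the 2 most abundant of each list with its largest change among genes of baseMean above 100, and the genes most like *Hspd1* and *Hspa8*. *Hsf2* meets this rule. The genes and lists were chosen with earlier results of these data known.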

Additional observations from a re-analysis of the deposited data

How the results depend on the processing

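No heat shock gene was called in mutants, and none had a batch by group interaction, under any alternative run. Independent filtering tuned to DESeq2's default of 0.1 was tried after the counts had been seen, once with the intention of making it the main setting, and gave 141 genes in mutants in place of 148 and 2847 between batches, with the same counts of heat shock genes. The number of all genes called in mutants was 35 with edgeR, 18 with limma on log2(TPM + 1), 11 with limma on log2(TPM + 0.1), 51 with no batch term, 78 in batch 1 alone and 48 in batch 2 alone, and 86 to 264 when an embryo was left out (86 without mutant 2, 91 without mutant 5, 264 without control 2). Other chaperone genes numbered 0 with edgeR, either limma fit, a baseMean above 100, no batch term or batch 2 alone, 2 with TMM factors, and 0 to 2 when an embryo was left out. The call rested on control 3, 4, 5 and 6 and on mutant 3 and 5, without each of which it was 0, and it was 2 without control 2. Between batches the heat shock genes called were 2 in either limma fit and 1 in controls alone (1493 of all genes). They were 3 to 4 when an embryo was left out. *Hspa5*, not called in the main fit, was called between batches in 1 alternative. On log2(TPM + 1) the median of all genes shifted by 0.21 between batches. *Hspa8* was then 0.165, or 0.166 with a pseudocount of 0.1, against -0.14. In mutants, batch 2 alone reversed *Hsf1* (0.0101), *Hspd1* (0.0423) and *Hspa1b* (0.0887). *Hspa1b* also reversed with TMM factors (0.00477), a length offset (0.00935) and no batch term (0.0893), and ran from -0.674 to 0.349 when an embryo was left out; *Hspd1* ran from -0.183 to 0.0316. Between batches *Hsf1* reversed with the length offset (-0.0208) and *Dnajb1* with edgeR (-0.000563) and from -0.08 to 0.141 when an embryo was left out. The r of *Hspa8* and *Hsp90ab1* ran from -0.237 to 0.466, reversing without control 1 or control 2. The causes were not tested. Leaving out mutant 4 or 5 leaves 1 mutant in batch 1, which is assumed to vary like the others.

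No paired analysis was possible because the labels give no replicate numbers shared between the groups.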
